A study of Mus musculus with 12 samples.

Results

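The genes described here handle phosphate in the kidney or receive the hormones that set it. They are the type II sodium phosphate cotransporters Slc34a1 and Slc34a3, the type III transporters Slc20a1 and Slc20a2, the parathyroid hormone receptor Pth1r, the FGF23 co-receptor Kl (klotho) with its receptor Fgfr1, and the vitamin D receptor Vdr. All 8 were found by their gene name among the 41740 genes listed, and all 8 passed the filter on low counts (at least 10 counts summed over the 12 libraries) that left 13536 genes for testing. The libraries are whole kidneys of 6 mice with rhabdomyolysis-induced acute kidney injury (RIAKI) and 6 sham control mice, 1 library per mouse. All mice were wild-type males of the C57BL/6NCrl strain, whose age is not given in the sources used here. All went without drinking water for 19 h and were injected into the muscle of the left hind limb under isoflurane, RIAKI mice with 0.05 ml of 50% glycerol per 10 g of body weight and sham mice with saline. All also received Rimadyl (carprofen) at 5 mg/kg at 0 h and 3 h, and kidneys were taken at 24 h. The study had 10 mice per arm, and the labels do not say how the sequenced 6 were picked.

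The proximal tubule reclaims most of the filtered phosphate. NaPi-2a (Slc34a1) and NaPi-2c (Slc34a3) sit in its brush border and bring phosphate into the cell with sodium, and parathyroid hormone and FGF23 take these proteins out of the membrane. FGF23, a hormone made in bone, needs klotho beside an FGF receptor to signal. PiT-1 (Slc20a1) and PiT-2 (Slc20a2) are found in most cell types and supply cells with phosphate. The vitamin D receptor, which binds calcitriol and works on DNA together with a retinoid X receptor, regulates genes of calcium and phosphate transport.

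Expression was counted as unique molecules tagged at the 3′ end of transcripts, so that levels are given as CPM (counts per 1000000, after TMM scaling of the library totals) and are not divided by gene length. Exon counts totalled 1579157 to 1911871 per RIAKI library and 1673329 to 2073959 per sham library. Mitochondrial ribosomal RNA took 34.1 to 58.9% of them in RIAKI and 36.6 to 52.7% in sham. The first principal component (47.1% of the variance) separated RIAKI from sham. The second (9.41%) set the libraries numbered 1 and 2 of both groups (21.9 to 33.8) apart from the other 8 (-33.0 to 0.154), and the labels name no batch. Results are therefore also given for the 8 libraries numbered 3 to 6, a choice made after this pattern was seen. The nearest replicates, sham 1 and sham 2, differed by more than sampling noise (chi-square per degree of freedom 1.71), so each library counted as 1 mouse.

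Promoter sequences were at hand for 6 of the 8 genes in 9 windows (RefSeq, GRCm38.p6), each from 250 bases before to 50 after a transcription start. They were searched on both strands for AGGTCA (the half-site that many nuclear receptors bind), AGTTCA (a half-site variant found in vitamin D response elements) and GTTAAT (a half-site of the tubule factor HNF1). No letters of one motif can be read as another of the 3. The windows of Slc34a1, Slc34a3 and Vdr are shown because these genes fell in RIAKI and hold a match, in capitals.

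Slc34a1, chr13:55399398-55399697, plus strand: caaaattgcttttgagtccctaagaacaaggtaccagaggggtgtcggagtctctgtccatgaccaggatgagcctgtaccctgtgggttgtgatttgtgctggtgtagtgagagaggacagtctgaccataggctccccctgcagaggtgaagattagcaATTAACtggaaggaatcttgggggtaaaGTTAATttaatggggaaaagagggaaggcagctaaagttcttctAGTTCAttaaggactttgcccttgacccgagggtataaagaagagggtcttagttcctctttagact
Slc34a3, chr2:25234185-25234484, minus strand: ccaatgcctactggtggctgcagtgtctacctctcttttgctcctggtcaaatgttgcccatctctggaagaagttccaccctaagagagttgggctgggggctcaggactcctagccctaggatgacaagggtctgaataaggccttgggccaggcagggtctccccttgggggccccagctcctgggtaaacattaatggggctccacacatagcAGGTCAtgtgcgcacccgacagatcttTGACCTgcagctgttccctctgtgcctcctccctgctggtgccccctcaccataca
Vdr, chr15:97908247-97908546, minus strand: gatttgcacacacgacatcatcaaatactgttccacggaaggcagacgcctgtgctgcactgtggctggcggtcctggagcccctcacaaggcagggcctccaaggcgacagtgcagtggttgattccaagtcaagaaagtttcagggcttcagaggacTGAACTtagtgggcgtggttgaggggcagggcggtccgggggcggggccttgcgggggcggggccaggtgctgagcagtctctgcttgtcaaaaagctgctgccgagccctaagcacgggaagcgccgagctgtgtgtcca

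Slc34a1 held GTTAAT at positions -89 and -61 and AGTTCA at -17, counted from the transcription start. Slc34a3 held AGGTCA at -33 and -6, and Vdr held AGTTCA at -91. Both windows of Slc20a1 held AGGTCA (at -26 and -75). The window of Kl and the 3 windows of Pth1r held none of these letters. Of 32851 mouse promoter windows of the same length, 16.3% held AGGTCA, 14.0% AGTTCA and 7.10% GTTAAT, so such matches are common and describe only the sequence.

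RIAKI kidneys held less RNA of both type II transporters, Pth1r, Kl and Vdr, and more of both type III transporters. In the quasi-likelihood test of edgeR, adjusted by Benjamini and Hochberg over all genes tested, 7 of the 8 passed the threshold of 0.05, against 36.3% of all genes tested. Lower were 5 of 8 (background 18.8%) and higher were 2 of 8 (background 17.4%), and Fgfr1 did not pass. The same 7 had RIAKI and sham values that did not overlap, a pattern found in 19.3% of all genes tested. The median log2 fold change was -1.77 over the 8 genes and -0.01 over all genes tested. In whole kidney, fewer cells of a type and less RNA per cell cannot be told apart.

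**Figure D1:**
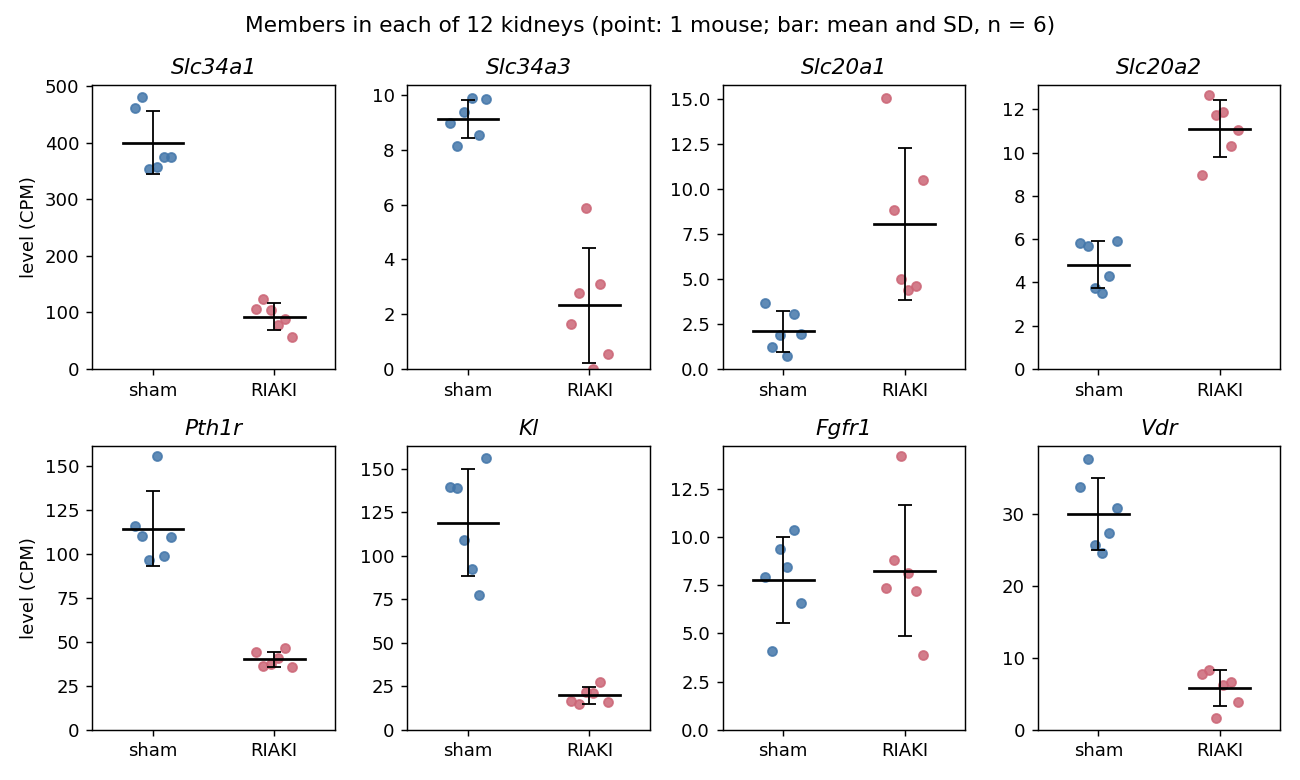
Level of each gene (CPM, linear axes from 0) in every kidney; points are mice, bars are the mean and SD of 6. RIAKI and sham points are separated in every panel but that of Fgfr1, with RIAKI below sham for Slc34a1, Slc34a3, Pth1r, Kl and Vdr and above it for Slc20a1 and Slc20a2.

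Slc34a1 (ENSMUSG00000021490, GRCm38 chr13:55398187-55415592, plus strand) was the most abundant of the 8 in sham kidneys. Its level was 353 CPM at the lowest, 374 at the median and 480.5 at the highest in sham, and 55.7, 96.2 and 123 CPM in RIAKI. The highest RIAKI kidney stood far below the lowest sham kidney, and the highest sham levels were those of the libraries numbered 1 and 2. The means were 92.4 ± 23.6 CPM in RIAKI and 399.7 ± 55.7 in sham (SD, n = 6 each). The log2 fold change was -2.11 (SE 0.16, 95% interval -2.45 to -1.78, edgeR adjusted p = 1.26e-11).

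Slc34a3 (ENSMUSG00000006469, chr2:25228898-25234364, minus strand) encodes NaPi-2c and also fell, from a level near the depth limit. Sham libraries held 14 to 20 counts (median 16, or 8.12 to 9.87 CPM), and RIAKI libraries held 0 to 7 (median 4.5, or 0 to 5.86 CPM). RIAKI 4 was the library with 0 counts, which allows a level of up to 1.87 CPM (3 counts, counting error only), and RIAKI 3 was the highest. Sham levels were close together, at 9.12 ± 0.707 CPM, while RIAKI levels spread over most of their range, at 2.31 ± 2.11 CPM (SD, n = 6 each). The log2 fold change was -2.04 (SE 0.38, edgeR adjusted p = 5.08e-05).

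Slc20a1 (ENSMUSG00000027397, chr2:129198764-129211616, plus strand), which encodes PiT-1, rose. RIAKI libraries held 6 to 37 counts (median 12.5) and sham libraries 1 to 7 (median 3.5). In CPM these were 4.37, 6.92 and 15.1 (lowest, median, highest) in RIAKI and 0.705, 1.92 and 3.69 in sham. Of the RIAKI kidneys, 3 had 4.37 to 5.02 CPM (6 to 9 counts) and 3 had 8.81 to 15.1 CPM (16 to 37 counts). The higher 3 include the libraries numbered 1 and 2, and whether the kidneys form subgroups was not tested. The lowest RIAKI kidney was still above the highest sham kidney. The log2 fold change was 1.98 (SE 0.39, edgeR adjusted p = 0.000113), and it was 1.67 in the 8 libraries numbered 3 to 6 (adjusted p = 0.00738).

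Slc20a2 (ENSMUSG00000037656, chr8:22476788-22569612, plus strand), which encodes PiT-2, also rose. Its level was 8.97, 11.4 and 12.7 CPM (lowest, median, highest) in RIAKI and 3.53, 4.98 and 5.91 CPM in sham, with no overlap. The mean was 11.1 ± 1.31 CPM in RIAKI against 4.82 ± 1.10 in sham (SD, n = 6 each), a log2 fold change of 1.17 (SE 0.24, edgeR adjusted p = 0.000223). Slc20a2 shares 95 exonic bases with Smim19 on the other strand, and the sources used here do not say whether counting used strand. Smim19 itself fell, from 152 counts in sham to 67 in RIAKI (log2 fold change -1.13, SE 0.23, edgeR adjusted p = 0.000239). Gm17491, inside Slc20a2 on the same strand but without a shared exon, had 28 counts in RIAKI and 21 in sham. Genes overlapping the other members held at most 4 counts over all libraries, and Slc34a3, Kl and Vdr overlapped none.

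The makeup of the transporter RNA shifted with these changes. Slc34a1 made up 95.5 to 97.0% of the exon counts of the 4 transporters in sham kidneys (median 96.0%) and 71.6 to 83.5% in RIAKI kidneys (median 82.5%). Over all counts of a group, the share of Slc20a1 was 0.492% in sham and 7.59% in RIAKI, and that of Slc20a2 was 1.16% and 9.52%. The share of Slc34a3 was 2.14% and 1.86%. The 4 transporters together held 368 to 495 CPM in sham and 77.8 to 147 CPM in RIAKI, so that the PiT genes gained far less than Slc34a1 lost.

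Ratios of pairs of genes within a library need no scaling between libraries, and 7 were tested by 2-sided exact permutation tests over all assignments of the group labels (smallest possible p 0.00216), with Benjamini-Hochberg adjustment over the 7. Slc20a2 to Slc34a1 was higher in RIAKI by 3.32 on the log2 scale (SE 0.20, exact adjusted p = 0.00379) and Slc20a1 to Slc34a1 by 3.96 (SE 0.44, exact adjusted p = 0.00379), with no overlap in either. Both outcomes were fixed in advance, because the levels of these genes already stood apart in opposite directions. Their p-values therefore add no support beyond those levels. The type II genes did not differ detectably from each other, with Slc34a3 to Slc34a1 at -0.27 (SE 0.56, exact adjusted p = 0.71), a value that turned to 0.19 without RIAKI 4, the library with 0 Slc34a3 counts. The type III genes did not differ detectably either, with Slc20a1 to Slc20a2 at 0.64 (SE 0.43, exact adjusted p = 0.233). With errors of this size, moderate differences within either class were not detectable.

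**Figure D2:**
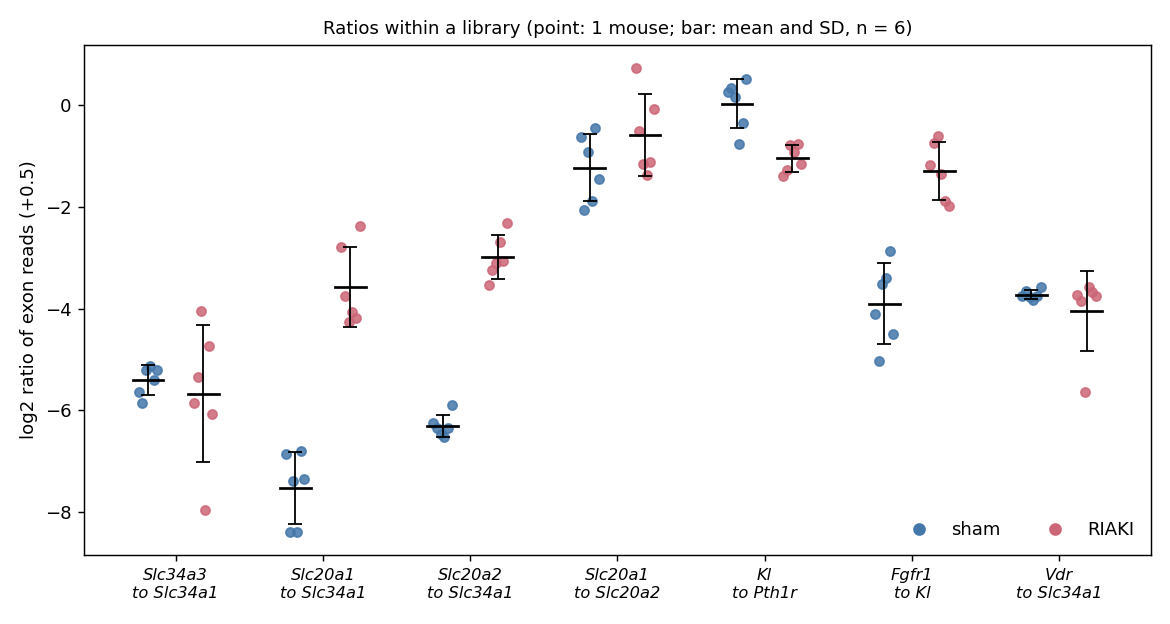
Log2 ratio of exon counts (0.5 added to each) of 7 gene pairs in every kidney; points are mice, bars are the mean and SD of 6. The groups are apart for Slc20a1 and Slc20a2 to Slc34a1, for Kl to Pth1r and for Fgfr1 to Kl, and they overlap for the other 3 pairs, where RIAKI 4 (Slc34a3) and RIAKI 3 (Vdr) lie lowest.

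Of 16 further genes of the phosphate and parathyroid hormone apparatus of the tubule, 7 fell, 3 rose and 6 did not pass the test (median log2 fold change -0.39). Among all genes tested, 36.3% passed. Pdzk1, a scaffold that binds NaPi-2a in the brush border, fell, with 253 to 337 CPM in sham and 38.3 to 61.1 CPM in RIAKI. Its log2 fold change was -2.50 (SE 0.15, edgeR adjusted p = 3.1e-14). The related scaffolds Pdzd3 (-0.78) and Slc9a3r1 (NHERF1, -0.61) fell less, and Slc9a3r2 stood at -0.37 (adjusted p = 0.243). Slc9a3, the sodium proton exchanger of the brush border, fell by 1.69 on the log2 scale. Xpr1, which exports phosphate from cells, fell by 1.16.

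Among the genes that act after the parathyroid hormone receptor, Gnas (the stimulatory G protein subunit, -0.45) and Adcy6 (an adenylyl cyclase, -1.03) fell. Gnaq (0.33, adjusted p = 0.281), Gna11 (0.39, adjusted p = 0.0805) and Prkaca (-0.35, adjusted p = 0.0608) did not pass. The 3 genes that rose were Ezr (ezrin, which ties brush border proteins to actin, 1.05), Rgs2 (a brake on G protein signalling, 1.25) and Slc34a2 (NaPi-2b, the type II transporter known from gut and lung, 1.70). Slc34a2 rested on 27 counts in all, with 1.94 ± 0.666 CPM in RIAKI and 0.600 ± 0.784 in sham (SD, n = 6 each; edgeR adjusted p = 0.0348).

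Pth1r (ENSMUSG00000032492, chr9:110722085-110747145, minus strand), the receptor for parathyroid hormone, fell with little spread in RIAKI. Levels were 35.9, 39.1 and 46.4 CPM (lowest, median, highest) in RIAKI and 96.9, 109.9 and 156 CPM in sham. The groups did not overlap, and sham 4 stood above the other sham kidneys, which ended at 116 CPM. The means were 40.1 ± 4.31 and 114.6 ± 21.5 CPM (SD, n = 6 each), and the log2 fold change was -1.50 (SE 0.15, edgeR adjusted p = 1.21e-09). Without sham 4 it was -1.40.

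Kl (ENSMUSG00000058488, chr5:150952607-150993817, plus strand), which encodes klotho and is known from the distal convoluted tubule as well as the proximal tubule, had the lowest fold change of the 8. Levels were 14.9, 19.0 and 27.3 CPM (lowest, median, highest) in RIAKI and 77.5, 124 and 156 CPM in sham, with no overlap. The means were 19.6 ± 4.70 and 119 ± 30.8 CPM (SD, n = 6 each), and the log2 fold change was -2.60 (SE 0.19, 95% interval -2.99 to -2.22, edgeR adjusted p = 2.19e-12). In the 8 libraries numbered 3 to 6 it was -2.31. Within libraries, Kl fell more than Pth1r: the log2 ratio of Kl to Pth1r differed by -1.08 between RIAKI and sham (SE 0.22), at -1.05 ± 0.263 against 0.03 ± 0.481 (SD, n = 6 each; exact permutation adjusted p = 0.00379). In sham, the ratio was below 0 in kidneys 4 and 5 and above 0 in the other 4.

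Fgfr1 (ENSMUSG00000031565, chr8:25513654-25575718, plus strand), an FGF receptor that klotho turns into a receptor for FGF23, had like levels in both groups. RIAKI libraries held 7 to 18 counts (median 15) and sham libraries 10 to 20 (median 13.5). In CPM these were 3.86, 7.73 and 14.2 in RIAKI and 4.06, 8.19 and 10.4 in sham, and the ranges overlapped almost whole. The log2 fold change was 0.06 (SE 0.28, edgeR adjusted p = 0.899), and its 95% interval of -0.51 to 0.63 leaves room for a change of up to that size in either direction. Against Kl, Fgfr1 was higher in RIAKI by 2.61 on the log2 scale (SE 0.40, exact permutation adjusted p = 0.00379), with no overlap. With Fgfr1 at like levels in both groups, this ratio restates the fall of Kl (-2.60). Its p-value adds no support beyond the Kl levels and says nothing of a change in Fgfr1.

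The other genes of FGF23 signalling were mostly scarce. Fgf23 itself had 0 counts in all 12 libraries, which allows up to 1.22 to 2.51 CPM per library, and Klb, the klotho-related co-receptor of other FGF hormones, had 1 count. Of the 8 tested genes of this list (10 listed, median log2 fold change -0.19), 2 fell, 1 rose and 5 did not pass. This share of called genes was near the 36.3% of all genes tested. Fam20c, a kinase that phosphorylates FGF23, fell by 1.74 on the log2 scale (SE 0.27, edgeR adjusted p = 3.62e-06). Fgfr4 fell by 1.80 on 34 counts in all (SE 0.70, edgeR adjusted p = 0.0326). Fgfr2 stood at -0.07 (SE 0.44) and Fgfr3 at -0.90 (SE 0.58), neither past the test. Grb2, an adaptor of many receptor kinases, rose by 0.59.

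Of 10 genes that FGF receptors and other receptor kinases induce as feedback, 9 were tested, of which 3 rose and 6 did not pass (median log2 fold change 0.61). Here too the called share was near the 36.3% of all genes tested. The 3 called genes all rose, against 17.4% of all genes tested called higher. Spry2, an inhibitor of receptor kinase signalling, rose (73.9 to 104 CPM in sham, 165 to 279.8 CPM in RIAKI, log2 fold change 1.20, SE 0.15, edgeR adjusted p = 7.77e-08). Spred1 (0.86), another inhibitor, and Dusp6 (0.74), a phosphatase that switches off ERK, rose less. Spry1 stood at -0.01 and Etv5 at -0.63 (adjusted p = 0.167), so the list held genes on both sides of 0.

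Vdr (ENSMUSG00000022479, chr15:97854425-97910630, minus strand) fell in every RIAKI kidney to below the lowest sham kidney. RIAKI libraries held 2 to 19 counts (median 11.5) and sham libraries 35 to 93 (median 51). In CPM these were 1.67, 6.47 and 8.26 (lowest, median, highest) in RIAKI and 24.7, 29.2 and 37.8 in sham. The means were 5.75 ± 2.51 and 30.0 ± 5.06 CPM (SD, n = 6 each), with a log2 fold change of -2.32 (SE 0.23, edgeR adjusted p = 1.15e-09). The 2 counts belonged to RIAKI 3, the library with the fewest exon counts, and without it the fold change was -2.18. The ratio of Vdr to Slc34a1 was narrow in sham (-3.83 to -3.58 on the log2 scale) and differed in RIAKI by -0.31 (SE 0.32, exact permutation adjusted p = 0.644), a difference of 0.01 without RIAKI 3.

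Of 13 genes for the partners of the receptor and for the uptake of vitamin D, 12 were tested, of which 5 fell and 7 did not pass (median log2 fold change -0.38). The called share was again near the 36.3% of all genes tested. All 5 called genes fell, however, and 18.8% of all genes tested were called lower. Rxra (-0.49, SE 0.29, adjusted p = 0.199) and Rxrb (-0.34, SE 0.26, adjusted p = 0.324), the retinoid X receptor partners of Vdr, did not pass, and Rxrg had 1 count. The coactivator Ncoa1 (-0.74) and the corepressor Ncor1 (-0.42) fell. The other 3 that fell take up filtered vitamin D with its binding protein in the proximal tubule: Cubn (cubilin, -1.97), Lrp2 (megalin, -1.59) and Amn (amnionless, -1.09). Dab2, the adaptor that helps megalin into the cell, was 113 ± 17.7 CPM in RIAKI and 119 ± 16.7 in sham (SD, n = 6 each; log2 fold change -0.08).

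Of 8 calcium transport genes known to respond to vitamin D, 7 were tested, of which 3 fell and 4 did not pass (median log2 fold change -0.85). With 3 of 7 called, this list too stood near the 36.3% of all genes tested. Its 3 called genes all fell, against 18.8% of all genes tested called lower. Calb1 (calbindin-D28k, the calcium buffer of the distal tubule) fell, with 250.1 to 281 CPM in sham and 28.6 to 41.2 CPM in RIAKI. Its log2 fold change was -2.88 (SE 0.14, edgeR adjusted p = 6.98e-16). Slc8a1, the sodium calcium exchanger, fell by 2.71, and S100g (calbindin-D9k) by 0.75. Atp2b1, a calcium pump, stood at 0.31 (adjusted p = 0.14), and Trpv5, the calcium channel of the distal tubule, had 25 counts in all. Calb1 and Trpv5 also stand in the list of distal tubule markers.

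**Figure D3:**
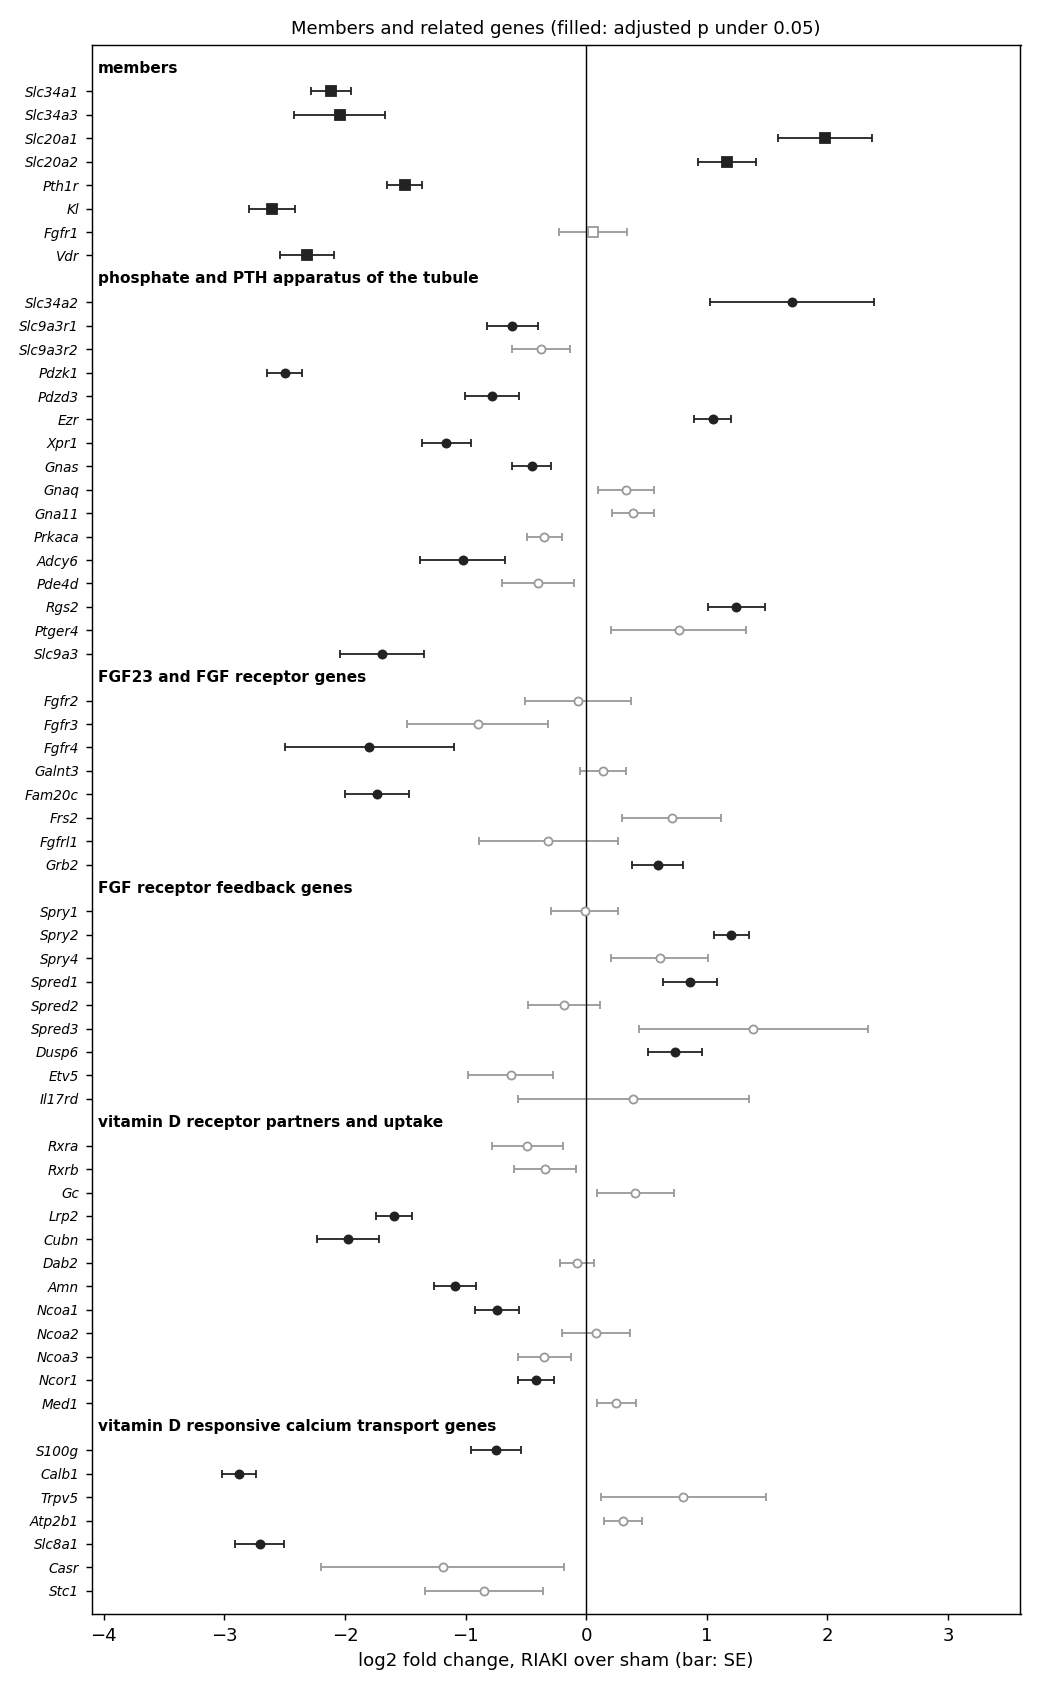
Log2 fold change of RIAKI over sham with its SE for the 8 members (squares) and for the tested genes of 5 related lists (circles), filled where edgeR's adjusted p was under 0.05. Members reach from -2.60 (Kl) to 1.98 (Slc20a1), and each related list holds genes that passed beside genes that did not.

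Most marker genes of the proximal tubule fell, as did 5 of the 8 genes described here, against 18.8% of all genes tested. Of 16 markers of the first and middle proximal tubule (segments S1 and S2), 15 fell and Slc6a19 did not pass (0.14, adjusted p = 0.542), and their median log2 fold change was -1.84. Miox (-2.17) and Slc4a4 (-2.02) had the smallest p-values. Their summed level was 3304 to 3712 CPM in sham and 1054 to 1435 CPM in RIAKI. Of 8 markers of the last segment (S3), 7 fell, led by Slc7a13 (-3.52) and Acy3 (-2.34), and Gpt2 rose (1.14, named after its value was seen). Their summed level was 1247 to 1685 CPM in sham and 269.8 to 484 CPM in RIAKI.

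Each member was set against the summed counts of the S1 and S2 markers, none of which is a member, in 8 exact permutation tests. Slc34a1 fell more than the markers, with a log2 difference of -0.66 (SE 0.20, exact adjusted p = 0.0139), although the groups overlapped. Kl also fell more, with no overlap (-1.09, SE 0.19, exact adjusted p = 0.00433), and so did Vdr, with overlapping groups (-0.98, SE 0.37, exact adjusted p = 0.0144). Pth1r stood at -0.02 (SE 0.14, exact adjusted p = 0.905) and so kept close to the markers, and Slc34a3 at -0.93 (SE 0.62, exact adjusted p = 0.215). Slc20a1 (3.30), Slc20a2 (2.65) and Fgfr1 (1.52) were higher relative to the markers, each with an exact adjusted p of 0.00433 and no overlap. For Slc20a1 and Slc20a2 this outcome was fixed by their own rise and by the fall of the markers, whose summed levels did not overlap either. For Fgfr1, whose own log2 fold change was 0.06, the difference restates the fall of the markers and is no result about Fgfr1 itself.

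The choice of markers mattered for 3 of the 8. Against the S3 markers in place of S1 and S2, the difference was -0.03 for Slc34a1 (exact adjusted p = 0.913), -0.34 for Vdr (exact adjusted p = 0.569) and 0.62 for Pth1r (exact adjusted p = 0.0104). Kl still fell more than the S3 markers (-0.46, exact adjusted p = 0.00866). The larger fall of Kl was thus present against both sets of proximal tubule markers, while those of Slc34a1 and Vdr passed the test against S1 and S2 only. Kl was not tested against the markers of the distal tubule.

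**Figure D4:**
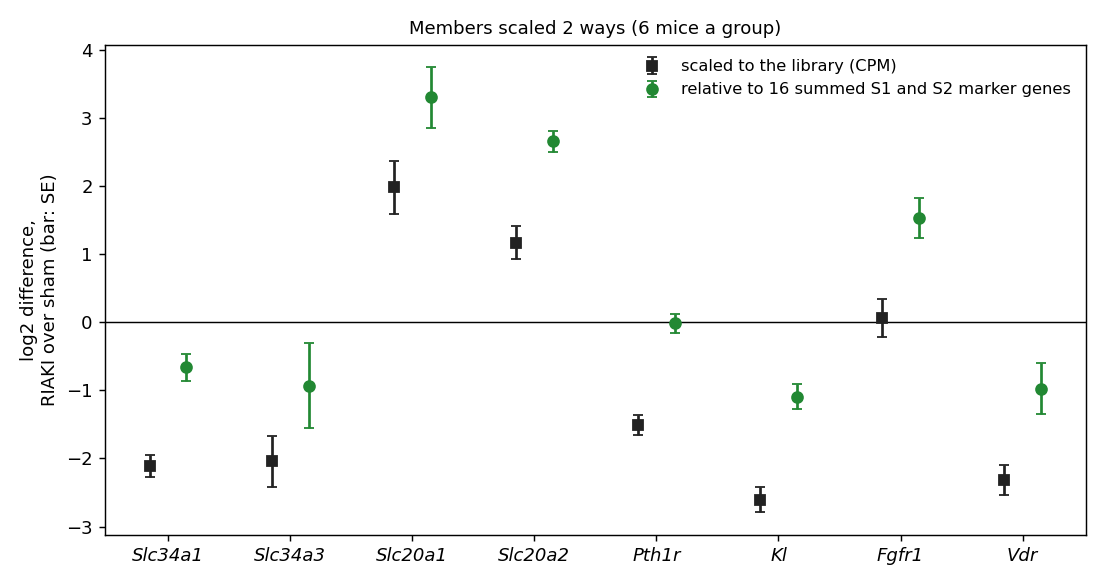
Log2 difference of RIAKI and sham with its SE for each member, scaled to the library (squares, edgeR fold change of CPM) and relative to the summed counts of 16 S1 and S2 marker genes (circles, 6 mice a group). The circles lie above the squares for every member, near 0 for Pth1r (-0.02), and below 0 for Slc34a1 (-0.66), Slc34a3 (-0.93), Vdr (-0.98) and Kl (-1.09).

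Markers of several other parts of the kidney moved too. For comparison, 18.8% of all genes tested were called lower and 17.4% higher. Markers of the thick ascending limb fell in 8 of 9 (median log2 fold change -2.09, led by Slc12a1 at -4.30), those of the distal convoluted and connecting tubule, where klotho is also found, in 5 of 8 (median -1.41, summed level 693 to 861 CPM in sham and 341 to 480.2 in RIAKI), and those of the collecting duct in 5 of 10 (median -0.84). Klk1, a kallikrein named here after its level had been seen, held much of the summed distal level, at 363 ± 37.7 CPM in sham and 316 ± 36.7 in RIAKI (SD, n = 6 each). The other 7 distal markers had summed levels with means of 414 CPM in sham and 81.9 in RIAKI, from 374 CPM upwards in sham and up to 112 in RIAKI. Calb1 alone, with means of 264 CPM in sham and 35.9 in RIAKI, held most of that sham sum. Injured tubule markers rose in 7 of 8 (median 3.85), with a summed 416 to 485 CPM in sham and 4451 to 6268 CPM in RIAKI, led by Havcr1 (5.15) and Lcn2 (4.91). Of 9 fibroblast markers 3 rose and 3 fell (summed level 88.0 to 128 CPM in sham and 98.8 to 154 in RIAKI), of 9 tested macrophage markers 3 rose and 2 fell, and of 4 tested neutrophil markers 3 rose (summed level 2.12 to 5.25 CPM in sham and 17.1 to 49.4 in RIAKI), with Mmp9 and Ly6g at 0 counts. Of 7 podocyte markers 1 rose (Nphs1, 2.10), and of 9 endothelial markers 1 fell (Ehd3, -0.77), shares no higher than those of all genes tested. Beyond the ratios given above, the part of these cell types in the levels of the 8 genes was not tested.

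Reads in introns, a separate count of the deposited files, come in part from RNA that is not yet spliced. Slc34a1 had 564 intron reads in sham and 27 in RIAKI. Per 1000000 exon counts (RPM), these were 27.4 to 92.1 reads in sham and 0 to 5.75 in RIAKI, with means of 49.9 ± 26.6 and 2.57 ± 1.88 (SD, n = 6 each). The groups did not overlap (exact permutation adjusted p = 0.00325, over 3 genes with at least 60 intron reads), and the highest sham values were those of the libraries numbered 1 and 2. The sham mean was 19.4-fold the RIAKI mean for intron reads. Kl fell likewise, from 81 intron reads in sham to 9 in RIAKI, with 7.17 ± 5.55 and 0.824 ± 0.712 RPM (SD, n = 6 each; exact permutation adjusted p = 0.00325). Its highest sham values were again those of the libraries numbered 1 and 2. In the 8 libraries numbered 3 to 6, the difference between RIAKI and sham was -2.56 RPM in place of -6.35 for Kl, and -31.6 in place of -47.3 for Slc34a1 (each with an exact adjusted p of 0.0429). Slc20a2 had 42 intron reads in sham and 66 in RIAKI, at 3.74 ± 1.72 and 6.25 ± 3.14 RPM (SD, n = 6 each), with overlapping groups (exact permutation adjusted p = 0.113). Whether reads of Gm17491, which lies inside Slc20a2 without a shared exon, are among these intron reads was not tested.

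Intron reads of Slc34a1 fell by more than its exon reads. They made up 7.96 to 13.9% of the reads of Slc34a1 in sham and 0 to 3.81% in RIAKI (means 10.5 ± 2.41% and 2.50 ± 1.47%, SD, n = 6 each). This measure was chosen after the intron reads had been seen, and by an exact permutation test its adjusted p was 0.00866 over 4 tests. The intron share was 5.30 ± 2.74% in sham and 3.74 ± 2.63% in RIAKI for Kl (SD, n = 6 each; exact permutation adjusted p = 0.421), and 42.5 ± 11.5% and 34.1 ± 11.0% for Slc20a2 (SD, n = 6 each; exact permutation adjusted p = 0.421). Over all genes it was 4.79 ± 1.06% in sham and 4.68 ± 1.07% in RIAKI (SD, n = 6 each; exact permutation adjusted p = 0.861). Other members had too few intron reads to test: 40 in sham and 12 in RIAKI for Vdr, 23 and 14 for Fgfr1, 7 and 8 for Pth1r, 2 and 14 for Slc20a1, and 2 and 0 for Slc34a3.

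**Figure D5:**
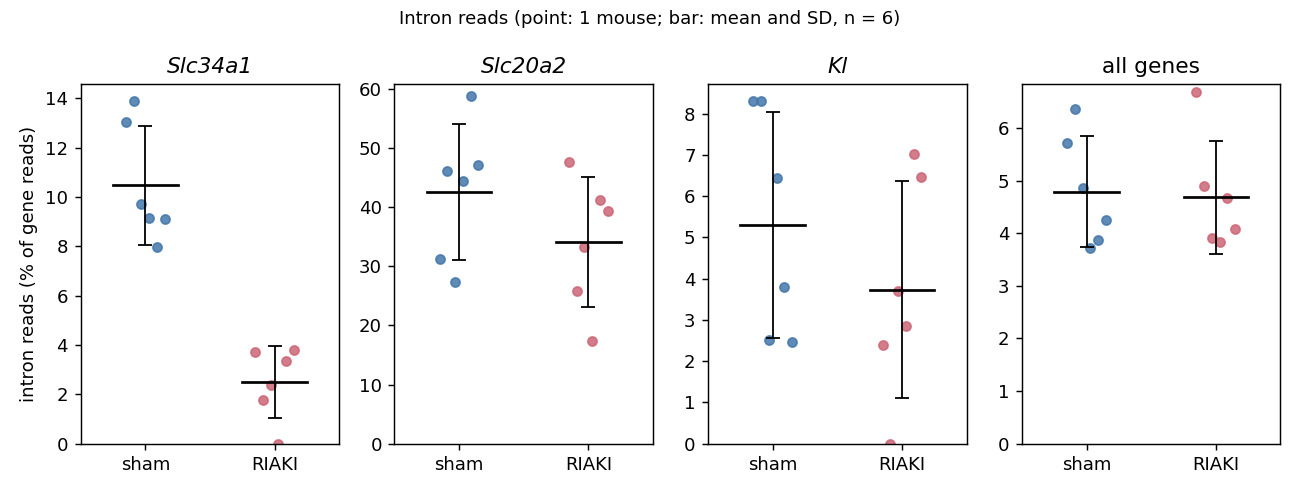
Intron reads as a percent of all reads of the gene in every kidney, for the 3 members with at least 60 intron reads and for all genes together; points are mice, bars are the mean and SD of 6, and axes start at 0 but differ between panels. RIAKI (0 to 3.81%) lies below sham (7.96 to 13.9%) for Slc34a1, and the groups overlap in the other panels.

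The genes whose pattern over the 12 libraries was most like that of a member were found by the root mean square difference of log2 CPM, each gene centred on its mean, among 7124 genes with at least 10 counts per library on average. For Slc34a1 they were Fmo1 (0.19), Ass1 (0.23) and Miox (0.25), against a median of 1.17 over all genes compared. Ass1 is an enzyme of arginine synthesis, and Miox, an inositol oxygenase, is also 1 of the S1 and S2 markers. Pth1r was nearest to Dhrs4 (0.15), Kl to Csad (0.24), Vdr to Coq8a (0.27), Slc34a3 to Acox3 (0.44), Slc20a2 to Tgoln1 (0.19) and Fgfr1 to Bmpr2 (0.27). Slc20a1 was not compared because its mean was 9.75 counts per library. The libraries fall into 2 groups, so that this measure mostly ranks genes by the size of their group difference.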

How the data were processed

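The authors made 3′ libraries of whole kidney RNA with the QIAseq UPX kit, demultiplexed reads with bcl2fastq and processed them in CLC Genomics Workbench: reads were annotated with unique molecular indices, trimmed, deduplicated and mapped to GRCm38 with Ensembl genes. Deposited were unnormalized counts of such reads, 1 whole number per gene each for exons, for exon reads mapped to 1 place and for introns. The strand setting of the counting is not given in the sources used here. Deposited normalized values were not used.

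The sample titles gave group and replicate number. Exon counts of genes with at least 10 counts over 12 libraries were scaled by TMM on full library totals and tested by quasi-likelihood in edgeR (version 4.0.16, R 4.3.3). P-values were adjusted by Benjamini-Hochberg over all genes, at a threshold of 0.05. The paper's methods name edgeR's exact test, which was run as an alternative. Intervals are 95%. Ratios, with 0.5 added to counts, and intron reads were tested by 2-sided exact permutation of the group labels (scipy 1.17.1). Replicates are single mice. Further alternatives were DESeq2 1.42.0, limma 3.58.1 (voom), a fit robust to outliers, changed scalings and filters, exon reads mapped to 1 place, another pseudocount, a replicate block and leaving out each library. The pipeline was tested on simulated counts.

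The genes, the 16 lists (5 of pathways, 11 of cell types, written from textbook knowledge) and the tests were chosen with earlier results of these data known. All members and any gene of the pathway lists could be named, and of each cell type list at most the 2 called genes with the smallest p and markers at 0 counts. The likest genes were the 3 nearest for Slc34a1 and the nearest for other members. Coordinates are those of GRCm38, overlaps were read from GENCODE M21, and promoters came from RefSeq.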

Additional observations from a re-analysis of the deposited data

Results flagged for a closer look

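In each group of 6 kidneys, the gap of the most extreme kidney to its nearest neighbour was compared with the range of the group, for 58 groups of values of the 8 genes (levels, ratios and intron reads). In 2 of them the gap share passed the 95% critical value of Dixon for 6 values, which chance passes in about 1 of 20 groups. Pth1r in sham 4 was at 156 CPM, with the next sham kidney at 116 CPM, a gap share of 0.675. The log2 ratio of Vdr to Slc34a1 in RIAKI 3 was -5.64, with the next RIAKI kidney at -3.85, a gap share of 0.869. The Vdr value of that kidney rests on 2 exon counts.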

How the results depend on the processing

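The 7 called members kept their direction and their call under all alternatives in which they were tested (DESeq2, edgeR's exact test, limma, other scalings and filters, exon reads mapped to 1 place, the replicate block, each library left out, the 8 libraries numbered 3 to 6). The count of called members was 6 to 7 over 26 alternatives. It was 6 with at least 10 counts required in 6 libraries, where Slc20a1 was not tested. The count over all genes was 3521 to 5014, the lowest at a threshold of 0.01. Replicate numbers did not pair the kidneys: deviations of same-numbered kidneys correlated at 0.193, 0.0743, 0.0155, 0.0193, -0.0759 and 0.0824. With the number as a block, 4961 genes and 7 members were called. A sign-flip test over the pairs left the log2 ratios of Slc20a1 to Slc34a1 (3.96), Slc20a2 to Slc34a1 (3.32), Kl to Pth1r (-1.08) and Fgfr1 to Kl (2.61) at an exact adjusted p of 0.0547, since its smallest p is 0.0312. In the 8 libraries these ratios were 3.76, 3.52, -0.80 and 2.12, each with an exact adjusted p of 0.05 and so not under the threshold, where the smallest p is 0.0286.

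Fgfr1 turned to -0.12 in the 8 libraries and ranged from -0.12 to 0.20 with 1 library left out, never past the test. Slc34a3 to Slc34a1 was 0.0014 with a pseudocount of 1 and -0.59 to 0.19 with 1 library left out, and Vdr to Slc34a1 was -0.41 to 0.0066. Relative to S3 markers, Slc34a1 was at -0.029, Vdr at -0.34 and Pth1r at 0.62; with the mean of the log2 counts of the S1 and S2 markers Pth1r was at 0.23. With 1 library left out, Pth1r relative to the S1 and S2 markers was -0.093 to 0.080, and Slc34a3 was -1.26 to -0.43, past the test only without RIAKI 3 (-1.26, exact adjusted p = 0.0247). The difference in intron reads of Slc20a2 was 1.46 to 3.29 per 1000000 exon counts and passed the test only without RIAKI 4 (3.29, exact adjusted p = 0.039). The difference in the intron share of all genes was -0.51 to 0.20 percentage points. The causes were not tested. Depth limits Slc34a3, Slc20a1, Slc20a2 and Fgfr1, which had 9.75 to 14.3 counts per library on average.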
